A study of Mus musculus with 4 samples.

Results

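The Bcl2 family holds the proteins that decide whether a cell opens its outer mitochondrial membrane and dies. The genes described here are 10 of its members, taken by symbol from the deposited expression table, which lists 18598 genes. They are the pro-survival genes *Bcl2*, *Bcl2l1*, *Mcl1* and *Bcl2l2*, the BH3-only genes *Bcl2l11*, *Bbc3*, *Pmaip1*, *Bid* and *Bad*, and the effector gene *Bak1*. All 10 were in the table, and all passed a filter on a mean of at least 10 normalized counts, which 14858 genes passed.

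Pro-survival proteins hold the effectors BAK and BAX in check, and BH3-only proteins bind the pro-survival proteins or the effectors and so set the effectors free. Once freed, BAK and BAX form pores that release cytochrome c, which starts the caspases. Blood stem and progenitor cells are known to depend on MCL1, and their cytokine receptors are known to keep several BH3-only genes low.

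RNA was measured in LSK cells, the lineage-negative bone marrow cells with SCA-1 and c-KIT that hold the hematopoietic stem and progenitor cells. There were 2 libraries from *Bptf* cKO mice and 2 from *Bptf* f/f control littermates, all on C57BL/6 and about 3 months old, with the cells of 5 mice in each library. BPTF is the largest subunit of the chromatin remodeler NURF. The cKO mice carried floxed *Bptf* alleles and *Mx1*-cre, and the f/f mice carried the floxed alleles without cre. Both were given pIpC, which switches on the interferon-driven *Mx1* promoter, and LSK cells were sorted 10 days after cre induction. *Mx1*-cre also acts outside the blood, and libraries of mice with cre alone were not analysed here. The question was what the loss of BPTF does to gene expression in these cells.

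*Bptf* itself had 5520 and 5850 normalized counts in the f/f libraries and 3398 and 3320 in the cKO libraries. Between 14091054 and 30134742 reads per library fell on listed genes. The labels do not say how the mice of the 2 libraries of a group were kept apart, so p-values measure only the spread between these pooled libraries. Replicate 2 of both groups stood apart from replicate 1, with *Xist*, the RNA of the inactive X chromosome, at 15675 normalized counts in f/f and 11843 in cKO, against 0.775 and 3.25 in replicate 1. The pluripotency gene *Pou5f1* was likewise at 582 and 738 in replicate 2 and at 0 in replicate 1. All 7 LSK markers were present. Their summed level was 52587 and 41886 in the f/f libraries and 40505 and 36330 in the cKO libraries, lower in both cKO libraries. No T cell marker was in the table. The summed level of 5 granulocyte genes was 44481 and 4022 in the f/f libraries and 14048 and 6964 in the cKO libraries. That of 3 B cell genes was 593 to 2520 in f/f and 917 to 1514 in cKO, and neither list separated the groups. Summed erythroid genes were lower in cKO, at 76.0 to 223 against 312 to 674 in f/f, and stromal genes summed to at most 72.0 in cKO and 140.0 in f/f. The part of these cells in the results was not tested. In bulk RNA, fewer cells of a type and less RNA per cell cannot be told apart.

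With genotype as the only factor, none of the 10 genes passed limma or edgeR, and their values differed between the groups as follows. Calls changed when the replicate number was used as a block, as given in the closing section. The groups did not overlap for 7 members that were higher in both cKO libraries (*Bcl2*, *Bcl2l1*, *Bcl2l2*, *Bbc3*, *Pmaip1*, *Bid* and *Bak1*) and for *Mcl1*, which was lower in both. Among all tested genes 23.2% were higher and 23.8% lower without overlap. The median log2 fold change was 0.33 over the 10 members and 0.0010 over all tested genes. None of the 10 passed an adjusted p of 0.05 in limma with genotype alone, where 0.740% of all tested genes did. At an unadjusted p under 0.05, 5 members were higher and 1 was lower, against 6.79% and 8.96% of all tested genes. The edgeR test on recovered reads called none of the members and 0.633% of the genes, and the DESeq2 test called *Bbc3* higher and *Mcl1* lower, with 2.18% of the genes higher and 3.36% lower. An exact two-sided permutation test of 1 gene cannot give a p below 0.333 with 2 libraries against 2.

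**Figure D1:**
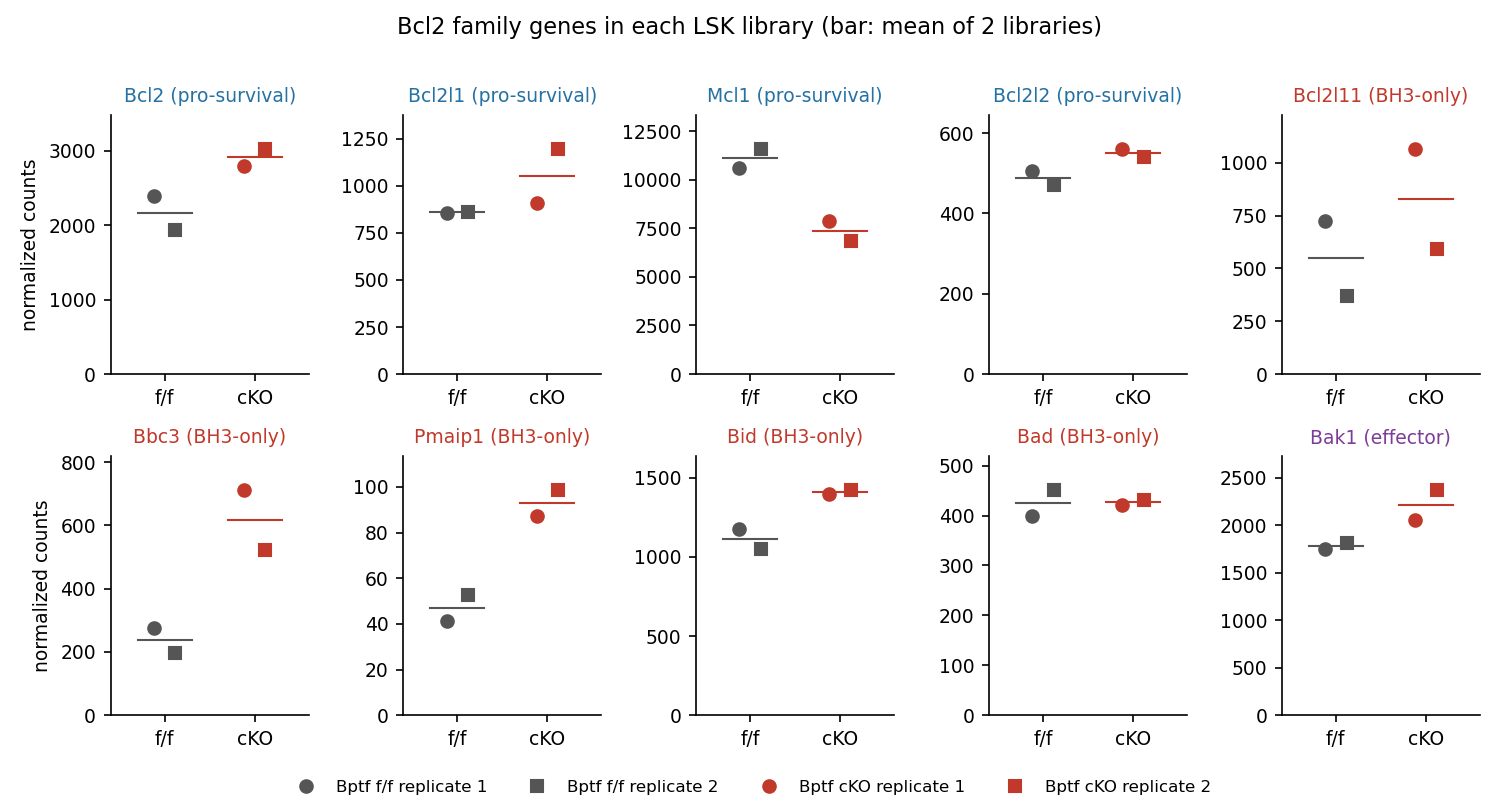
Normalized counts of the 10 family genes in each LSK library, 1 panel per gene with its own axis from 0. Points are libraries (circles replicate 1, squares replicate 2), and bars are means of 2 libraries. *Mcl1* is lower in both cKO libraries, 7 genes are higher in both, and *Bcl2l11* and *Bad* overlap.

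*Bbc3* and *Mcl1* were the 2 members that DESeq2 called, in opposite directions, and their promoters are shown for that reason. The sequences are RefSeq windows on GRCm38.p6 from 250 bases before a transcription start to 50 after it, on the plus strand. *Bbc3* has 3 such starts, and the most upstream window is printed, chr7:16309333-16309632. It is the only 1 of the 3 with the half-site marked below, and the other 2 windows have none. *Mcl1* has 1, at chr3:95658471-95658770. Capitals mark the cAMP response element half-site TGACG, which ATF and CREB factors bind, here found on the opposite strand and so read as CGTCA.
Bbc3: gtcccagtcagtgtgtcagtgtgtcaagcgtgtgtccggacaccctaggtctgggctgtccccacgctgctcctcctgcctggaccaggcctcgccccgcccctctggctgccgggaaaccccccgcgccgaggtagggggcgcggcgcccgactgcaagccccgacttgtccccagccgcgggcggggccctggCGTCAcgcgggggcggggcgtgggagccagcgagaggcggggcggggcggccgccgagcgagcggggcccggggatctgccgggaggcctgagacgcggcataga
Mcl1: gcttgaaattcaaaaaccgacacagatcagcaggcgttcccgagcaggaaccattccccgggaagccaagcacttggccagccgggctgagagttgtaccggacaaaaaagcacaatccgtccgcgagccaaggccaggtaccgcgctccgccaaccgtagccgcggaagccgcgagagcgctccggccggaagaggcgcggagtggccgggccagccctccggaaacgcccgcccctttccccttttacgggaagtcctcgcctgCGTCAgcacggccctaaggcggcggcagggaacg

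The match began at base 196 of the *Bbc3* window and at base 267 of the *Mcl1* window. G and C made up 76.0% and 65.7% of the bases. Promoters of 9 members were matched by symbol, with 15 windows. Windows of 1 chromosome, which holds *Pmaip1*, were left out of the search and of the 32851 windows. TGACG, searched on both strands, was in 3 of the 15 member windows (*Bbc3*, *Bcl2* and *Mcl1*) and in 20.8% of all 32851 windows, so the members stood near the background. The GC box GGGCGG was in 10 of the 15 windows, from 7 of the 9 members, and in 35.7% of all windows. The E-box CACGTG was in 1 of the 15, of *Bbc3*, and in 7.2% of all. The AP-1 site TGANTCA and the C/EBP-ATF element TGATGNAA were in no member window, and in 7.8% and 4.0% of all. No motif holds another whole, though neighbouring matches can share bases at their ends. A match is a run of letters and not evidence of binding.

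MCL1 is a pro-survival protein with a short life in the cell. *Mcl1* (ENSMUSG00000038612.16, chromosome 3, 95658788 to 95663176 on GRCm38) had 10615 and 11595 normalized counts in the f/f libraries and 7888 and 6849 in the cKO libraries. Both cKO libraries were below both f/f libraries. Group means were 11105 ± 693 in f/f and 7368 ± 735 in cKO (SD, n = 2). On the log2 scale the difference was -0.59 (95% confidence interval -0.88 to -0.31). The limma adjusted p was 0.0999, that of edgeR 0.119 and that of DESeq2 0.00138. The level was 1.51-fold higher in f/f cells. Of 5 immediate-early genes, none was called by limma, and *Fos*, *Jun*, *Egr1* and *Ier2* were lower in both cKO libraries. The DESeq2 adjusted p was 2.07e-04 for *Fos*, 0.0027 for *Jun*, 0.0258 for *Ier2*, 0.377 for *Egr1* and 0.600 for *Atf3*. *Atf3* overlapped, at 42.6 and 1021 in f/f and 64.3 and 124 in cKO. *Fos* was at 16269 and 37418 in f/f and at 4335 and 4312 in cKO, and the sum of the 5 genes was 40607 and 94439 against 16286 and 17714. Their part in the *Mcl1* difference was not tested. The *Mcl1* difference was -0.43 between the replicate 1 libraries and -0.76 between the replicate 2 libraries on the log2 scale.

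*Bcl2*, the founding member (chromosome 1, 106538178 to 106714274), is a pro-survival gene that keeps lymphocytes alive. It had 2392 and 1933 normalized counts in f/f and 2800 and 3031 in cKO. Both cKO libraries were higher, by 0.44 on the log2 scale with a standard error of 0.13 (limma adjusted p = 0.228, DESeq2 adjusted p = 0.138). *Bcl2l1*, which encodes BCL-XL, the survival factor of erythroid cells and platelets, had 857 and 863 in f/f and 909 and 1198 in cKO. The cKO libraries lay above but differed from each other more than the lower one differed from f/f (log2 fold change 0.28, limma adjusted p = 0.483). *Bcl2l2*, which encodes BCL-W, had 505 and 470 in f/f and 562 and 542 in cKO. Its log2 fold change of 0.18 had a confidence interval from -0.16 to 0.51. *Bcl2l1* lies on chromosome 2 (152780668 to 152831728) and *Bcl2l2* on chromosome 14 (54883377 to 54888234). The 3 pro-survival genes other than *Mcl1* were higher in both cKO libraries, and none passed limma, edgeR or DESeq2 with genotype as the only factor.

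BH3-only proteins are the sensors of the family, each tied to its own kinds of stress. *Bbc3*, which encodes PUMA, a p53 target that binds all pro-survival proteins, had the largest difference of the 10. It had 276 and 197 normalized counts in the f/f libraries and 713 and 522 in the cKO libraries. The lower cKO library was well above the higher f/f library. Group means were 236 ± 56.0 in f/f and 618 ± 135 in cKO (SD, n = 2). The level was 2.61-fold higher in cKO, 1.38 on the log2 scale (95% confidence interval 0.76 to 2.01). The limma adjusted p was 0.0915, that of edgeR 0.103 and that of DESeq2 1.66e-04. The difference was 1.37 between the replicate 1 libraries and 1.40 between the replicate 2 libraries on the log2 scale, nearly the same size in both pairs. The gene lies on chromosome 7 from 16308393 to 16318205 of GRCm38 (ENSMUSG00000002083.13).

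*Pmaip1*, which encodes NOXA, a p53 target that binds MCL1 above all, was the member with the fewest reads, between 38 and 134 per library. It had 41.1 and 52.7 normalized counts in f/f and 87.1 and 98.8 in cKO. The groups did not overlap, and the interval was wide, with a log2 fold change of 0.98 (95% confidence interval 0.22 to 1.74, limma adjusted p = 0.228). *Bid*, which links death receptors to the mitochondria once a caspase has cut it (chromosome 6, 120891930 to 120916853), had 1179 and 1051 in f/f and 1395 and 1425 in cKO. Both cKO libraries were higher (log2 fold change 0.34, limma adjusted p = 0.252).

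*Bcl2l11*, which encodes BIM, is a BH3-only gene that cytokine withdrawal induces in blood cells. It lies on chromosome 2 from 128126038 to 128162547. It had 726 and 371 normalized counts in f/f and 1067 and 590 in cKO. Replicate 1 was higher than replicate 2 in both groups, and the f/f replicate 1 library exceeded the cKO replicate 2 library, so the groups overlapped. The log2 fold change of 0.61 had a confidence interval from -0.43 to 1.66 (limma adjusted p = 0.550). The difference was 0.56 between the replicate 1 libraries and 0.67 between the replicate 2 libraries. With the replicate number as a block, which the labels do not state, the limma adjusted p was 0.0056. *Bad* (chromosome 19, 6941861 to 6951899), whose product is switched off by phosphorylation, had 400.0 and 452 in f/f and 422 and 432 in cKO. The cKO values lay between those of f/f, and the log2 fold change of 0.0055 had an interval from -0.36 to 0.38.

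*Bak1* encodes BAK, an effector that sits in the outer mitochondrial membrane (chromosome 17, 27019810 to 27029009). It had 1748 and 1817 normalized counts in f/f and 2060 and 2373 in cKO. Both cKO libraries were higher (log2 fold change 0.31, standard error 0.11, limma adjusted p = 0.283). *Bax*, the other effector and a p53 target that is not among the 10 genes, had 699 and 668 in f/f and 1050 and 1139 in cKO (log2 fold change 0.68, limma adjusted p = 0.0843, DESeq2 adjusted p = 0.00211).

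**Figure D2:**
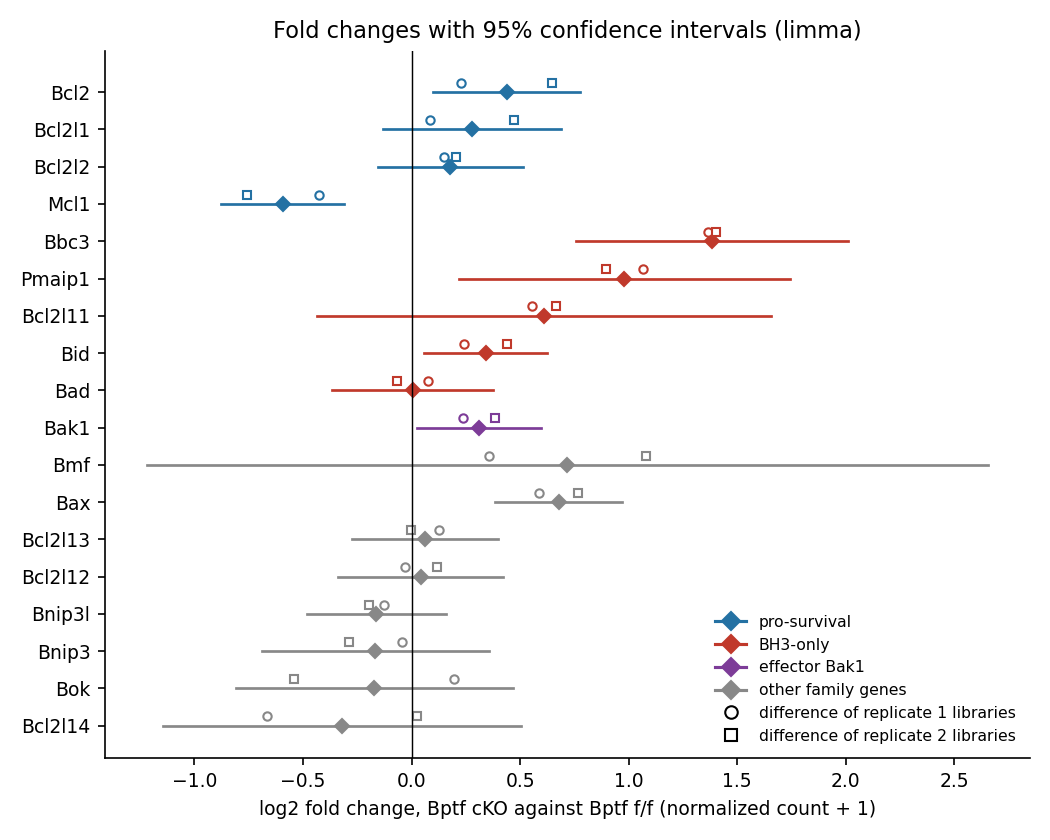
Log2 fold change of cKO against f/f for the 10 genes and 8 other tested family genes, with diamonds for the limma estimate and lines for 95% confidence intervals. Open circles and squares are the differences between replicate 1 libraries and between replicate 2 libraries. Colours mark the roles. Of the 10 estimates only that of *Mcl1* lies below 0, and the interval of *Bbc3* runs from 0.76 to 2.01.

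Exons of 5 members share bases with exons of other genes in GENCODE vM21, and whether the counting used strand is not given in the sources used here. The shares of exonic bases were 25.5% for *Bak1* (with *Ggnbp1*, opposite strand), 20.5% for *Bad* (*Gpr137*, opposite), 17.7% for *Bid* (*Bcl2l13*, opposite), 13.3% for *Bcl2l2* (*Gm20521*, same strand) and 6.1% for *Bcl2* (*D630008O14Rik*, opposite). *Mcl1*, *Bbc3*, *Bcl2l11*, *Bcl2l1* and *Pmaip1* had no such overlap.

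Levels of different genes were compared as normalized counts per kilobase of exon, with the union of GENCODE exons as the length. *Mcl1* was the highest of the 10 in every library, at 3106 and 3392 per kilobase in f/f and 2308 and 2004 in cKO. *Bak1* came next at 741 ± 20.3 in f/f and 921 ± 92.1 in cKO (SD, n = 2), and *Bid* after it at 314 ± 25.6 and 397 ± 5.91. In f/f cells the order went on with *Bcl2* (236 ± 35.4), *Bcl2l1* (188 ± 0.951), *Bad* (166 ± 14.3), *Bbc3* (111 ± 26.3), *Bcl2l2* (109 ± 5.63), *Bcl2l11* (68.3 ± 31.2) and *Pmaip1* (17.2 ± 3.00). Of the neighbours in this order only *Bbc3* and *Bcl2l2* had overlapping library values. In cKO cells *Bbc3* moved from place 7 to place 5, at 291 ± 63.6 per kilobase. Its cKO values overlapped those of *Bcl2* above it (318 ± 17.8) and of *Bcl2l1* below it (230 ± 44.6). Those of *Bcl2l2* and *Bcl2l11* overlapped too.

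**Figure D3:**
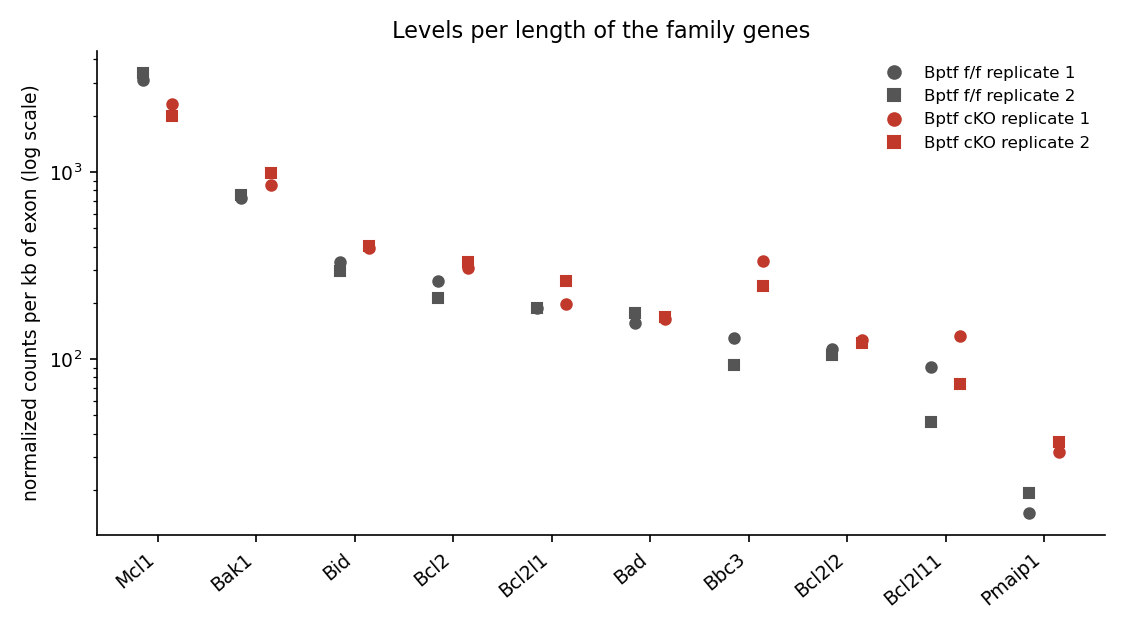
Normalized counts per kilobase of exon for the 10 genes on a log axis, ordered by the f/f mean. Circles are replicate 1, squares replicate 2, grey f/f and red cKO. *Mcl1* is highest at 2004 to 3392 and *Pmaip1* lowest, and *Bbc3* moves from place 7 in f/f to place 5 in cKO.

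The same scale gave the composition of each library. The 4 pro-survival genes summed to 3667 and 3897 normalized counts per kilobase in f/f and to 2938 and 2717 in cKO. The 5 BH3-only genes summed to 724 and 631 in f/f and to 1058 and 926 in cKO. The ratio of these sums was 5.07 and 6.18 in f/f and 2.78 and 2.94 in cKO, so both cKO libraries had the lower ratio. With *Mcl1* left out, the ratio was 0.776 and 0.800 in f/f and 0.595 and 0.771 in cKO. The cKO replicate 1 ratio was the lower one, and that of cKO replicate 2 nearly equalled that of f/f replicate 1. These sums are descriptions of chosen genes and carry no test.

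*Mcl1* made up 84.7% and 87.0% of the pro-survival sum in f/f and 78.6% and 73.7% in cKO. *Bcl2* went the other way, from 7.12% and 5.42% to 10.4% and 12.2%. Among the BH3-only genes, *Bbc3* took 17.9% and 14.7% of the sum in f/f and 31.7% and 26.6% in cKO. *Bid* remained the largest of them, with 45.9% and 46.9% in f/f and 37.1% and 43.4% in cKO. For 1 unit of *Bbc3* RNA per kilobase there were 23.9 and 36.6 units of *Mcl1* in f/f and 6.88 and 8.15 in cKO.

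**Figure D4:**
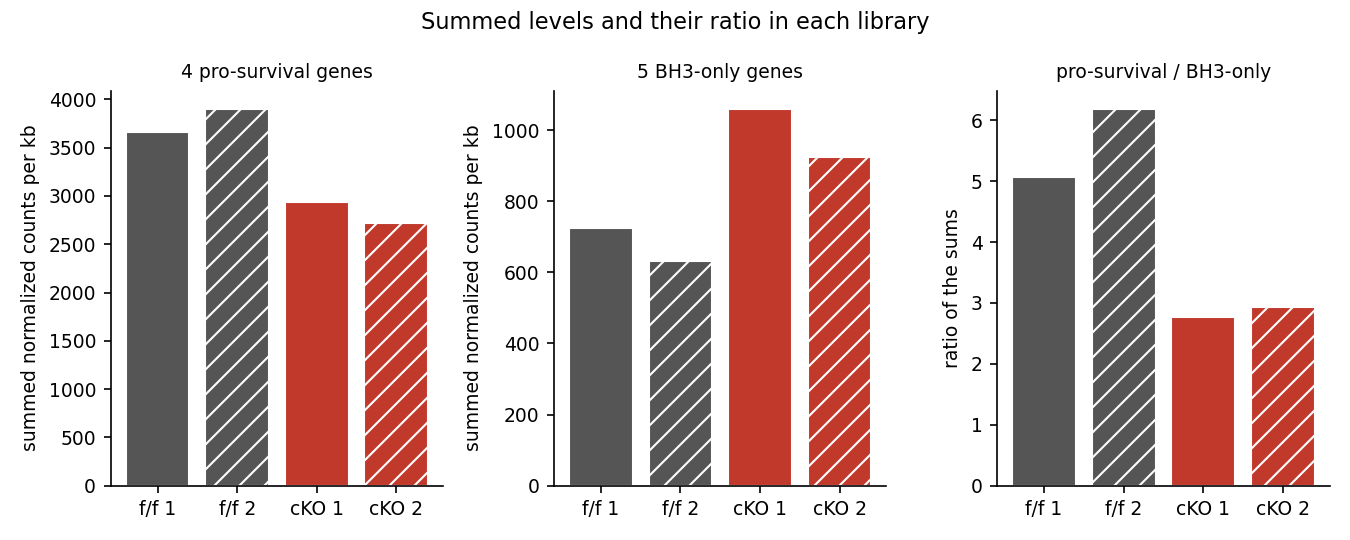
Summed normalized counts per kilobase of the 4 pro-survival genes (left) and of the 5 BH3-only genes (middle), and their ratio (right), in each library, with bars from 0. Grey is f/f, red cKO, and hatched bars are replicate 2. The ratio is 5.07 and 6.18 in f/f and 2.78 and 2.94 in cKO.

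Of 15 other family genes listed, 10 were in the table and 8 were tested. None was called by limma, and the median log2 fold change was -0.060. *Bax* had the smallest unadjusted p of them, and the other 7 had confidence intervals that included 0. *Bnip3*, a BH3-like gene of hypoxia and mitophagy, was at 158 and 183 in f/f and 153 and 150 in cKO. Its relative *Bnip3l* was at 2005 and 1795 in f/f and 1836 and 1565 in cKO. *Bok*, *Bcl2l12*, *Bcl2l13* and *Bcl2l14* overlapped between the groups, with log2 fold changes between -0.32 and 0.062. *Bmf*, a BH3-only gene tied to loss of cell attachment, was at 170 and 41.6 in f/f and 218 and 88.9 in cKO, split by replicate number like *Bcl2l11*. *Bik* and *Bcl2a1d* were below the filter. *Bik* was at 3.25 to 5.64, and *Bcl2a1d* had 1 and 2 reads in f/f and 11 and 8 in cKO, which could also come from its near-identical copies.

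Downstream of the family, none of 15 genes for caspases and mitochondrial death factors was called by limma, and their median log2 fold change was 0.095. The smallest unadjusted p values belonged to *Cycs* and *Casp6*. *Cycs*, which encodes cytochrome c, had 328 and 365 normalized counts in f/f and 480 and 504 in cKO (log2 fold change 0.51, limma adjusted p = 0.209). *Casp6*, an executioner caspase, had 504 and 535 in f/f and 369 and 394 in cKO (-0.45, limma adjusted p = 0.235). Among 5 genes of caspase inhibitors, *Birc2* was at 1636 and 1566 in f/f and 1386 and 1215 in cKO, and *Birc6* at 5681 and 5910 against 6926 and 6301. None of the 5 was called, and their median was -0.020.

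The list of death receptors also held a ligand and signalling partners. None of its 8 genes was called, and their median was 0.13. *Tnfsf10*, the ligand TRAIL, had 1730 and 1412 normalized counts in f/f and 1200 and 1000.4 in cKO (log2 fold change -0.51, limma adjusted p = 0.226). The receptor *Fas*, a p53 target, had 23.3 and 15.2 in f/f and 29.9 and 40.9 in cKO. Of 9 genes for protein partners of the family none was called. *Akt1*, whose kinase phosphorylates BAD, had 6764 and 6643 in f/f and 7889 and 8284 in cKO. *Dynll1*, a dynein light chain that binds BIM, had 1222 and 1545 against 1635 and 1917.

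The list of 14 transcription factors that act on the family genes held the only pathway gene called by limma. *Ddit3* encodes CHOP, a stress factor downstream of ATF4 that is known to act on *Bbc3* and *Bcl2l11*. It had 357 and 412 normalized counts in f/f and 903 and 1092 in cKO, and it rose by 1.37 on the log2 scale (standard error 0.16). The limma adjusted p was 0.0429, that of edgeR 0.0498 and that of DESeq2 1.48e-08. The call was lost when any 1 of the 4 libraries was left out, with limma adjusted p values from 0.0681 to 0.306. *Jun* had 15177 and 32102 in f/f and 4949 and 5939 in cKO (log2 fold change -2.03, limma adjusted p = 0.0864, DESeq2 adjusted p = 0.0027). *Trp53* was at 6161 and 5689 in f/f and at 6516 and 6710 in cKO (log2 fold change 0.16, limma adjusted p = 0.482). *Foxo3* was at 5598 and 5103 against 5369 and 4381 (-0.14, limma adjusted p = 0.677). *Atf4* was at 6634 and 8840 against 8852 and 9469 (0.26, limma adjusted p = 0.501). These 3 were named after their values were seen. Of the 13 tested factors, 7 had log2 fold changes above 0 and 6 below, with a median of 0.0047. Over the 6 lists of 58 tested genes, 1 was called higher and 0 lower by limma, against 0.740% of all tested genes called. Without overlap of the groups, 20 were higher and 12 lower, against 23.2% and 23.8% of all tested genes.

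**Figure D5:**
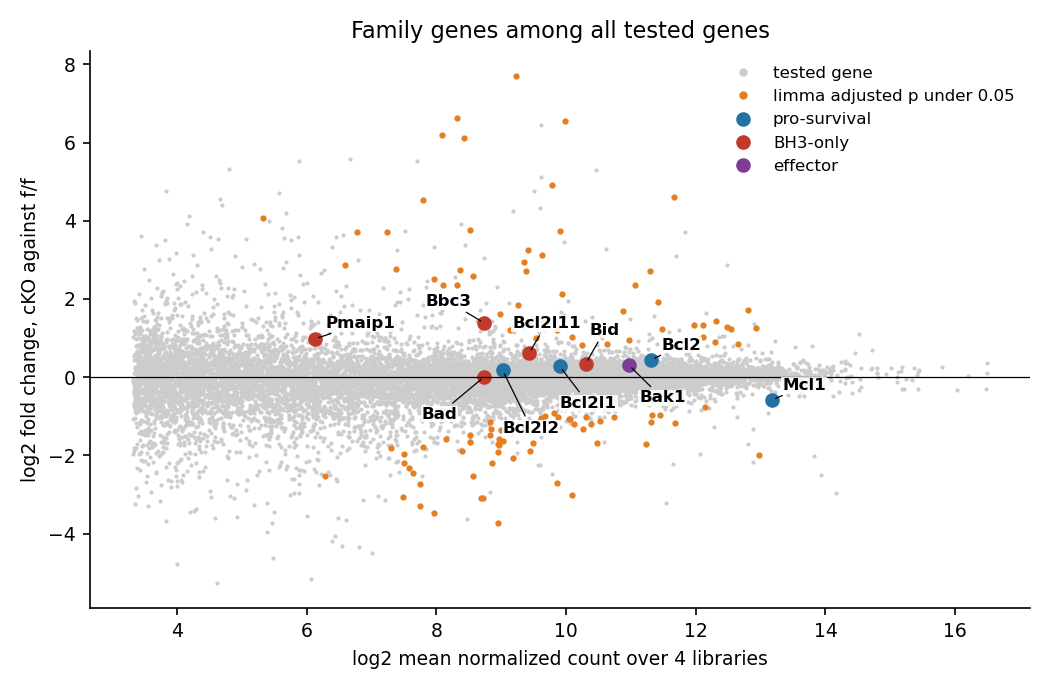
Log2 fold change of cKO against f/f by log2 mean normalized count for the 14858 tested genes (grey), with genes at a limma adjusted p under 0.05 in orange. The 10 family genes are named, and none of them is orange. *Bbc3* (1.38) and *Mcl1* (-0.59) are at the upper and lower ends of the family.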

How the data were processed

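RNA-seq of sorted LSK cells was available as 1 table of the series, with a column for each of 4 libraries. The deposited values are a signal, gene counts that the authors divided by a size factor per library. The submitters' processing notes name HISAT2, featureCounts and DESeq2, with the builds GRCm38 and mm10, and give no versions; the annotation and the strand setting are not given in the sources used here. The authors' own fold changes and p-values stand in the same table and were not used.

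Dividing each library by its smallest non-zero value gave whole reads for 100% of the entries (tolerance 0.01 reads). The members and gene lists were chosen with earlier results of these data known. Genes with a mean of at least 10 (14858 of 18598) entered limma 3.58.1 (R 4.3.3, trend on) after 1 was added and log2 taken, which understates changes of low genes. The design held genotype alone, tests were two-sided, and p-values were adjusted over all these genes by Benjamini-Hochberg. The call was an adjusted p under 0.05. edgeR 4.0.16 (quasi-likelihood, TMM) and DESeq2 1.42.0 (Wald) were run on the recovered reads. The limma fit, with and without the replicate number as a block, and edgeR and DESeq2 with genotype alone were tested on simulated data without a replicate effect. The other settings were not. Genes named were the 10 members, the other family genes, and in each further list the genes called. Where fewer than 2 were called, those with the smallest unadjusted p were added, up to 2 in all. Coordinates and exon lengths are from GENCODE vM21 on GRCm38. Python 3.11.15 with pandas 2.3.3 and matplotlib 3.10.9 summarised the fits. The result of 1 marker gene is not reported here.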

Additional observations from a re-analysis of the deposited data

How the results depend on the processing

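*Pmaip1* had the fewest reads of the members, down to 38 in a library, which limits its precision. The number of members called was 0 higher and 0 lower in limma with the libraries recentred on their medians, with quantile normalization, with pseudocounts of 0.5 and 10, with no filter or a mean of at least 50, without the trend, with each library left out, and in edgeR. DESeq2 called 1 higher and 1 lower. The replicate number was also used as a block, although the labels state no shared origin of same-numbered libraries. Their deviations from the group means correlated at 0.452 across 14858 genes, which are not independent replicates. With the replicate block limma and edgeR each called 5 members higher (*Bcl2*, *Bcl2l11*, *Bbc3*, *Bid* and *Bak1*) and 1 lower (*Mcl1*), where limma called 6.03% of all genes higher and 8.36% lower and edgeR 6.00% and 8.27%. Of the pathway genes, the replicate block gave 4 higher and 3 lower in limma and 5 higher and 3 lower in edgeR. DESeq2 gave 2 higher and 1 lower, and limma without the trend 0 higher. With 1 library left out they were 0 to 0 higher and 0 to 1 lower, *Jun* being the lower one, without f/f replicate 1 (limma adjusted p = 0.0111) and without f/f replicate 2 (limma adjusted p = 0.0460).

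*Bad* changed sign without cKO replicate 2 (-0.011), without f/f replicate 1 (-0.082) and, chosen after seeing the data, in the replicate 2 libraries alone (-0.065). With 1 library left out, *Bad* ran from -0.082 to 0.093, *Bok* from -0.44 to 0.093, *Bmf* from -0.28 to 1.72, *Bcl2l12* from -0.074 to 0.16 and *Bcl2l13* from -0.076 to 0.20; the first value of *Bmf* and *Bcl2l12* and the last of *Bok* came without f/f replicate 2. *Bcl2l13* was also below 0 without cKO replicate 2 (-0.011). The other members kept their sign in every setting. *Bbc3* ran from 1.14 to 1.63 and *Mcl1* from -0.70 to -0.49, with adjusted p values up to 0.361 and 0.596. *Bcl2l11* ran from 0.13 without f/f replicate 2 and 0.18 without cKO replicate 1 to 1.04 without cKO replicate 2 and 1.09 without f/f replicate 1. *Bcl2l1* was at 0.079 without cKO replicate 2 and 0.48 without cKO replicate 1. *Bcl2* was at 0.28 and *Bcl2l2* at 0.13 without f/f replicate 2, and *Bak1* at 0.21 without cKO replicate 2. The cause of these changes was not tested.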
